A study of Mus musculus with 2 samples.

Results

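The genes described here are 9 ligands of the CC chemokine family, Ccl2, Ccl3, Ccl4, Ccl5, Ccl6, Ccl7, Ccl8, Ccl9 and Ccl12, and the CXC ligand Cxcl2. They were chosen by name, with earlier results of these data known. All 10 had an assembled locus in both libraries. Over both libraries, 15169 genes were counted as assembled, 392 of them inside the locus of another gene. The libraries were made from total RNA of wild-type (WT) mouse bone marrow cells. One culture received M-CSF alone (M) and the other M-CSF and RANKL (MR), with 2 days of M-CSF followed by 2 days of M-CSF and RANKL in the labels of the study. The bone marrow culture method of the paper gives a longer time with RANKL than the labels, and no source used here says on which day RNA was taken. M-CSF keeps macrophage precursors alive, and RANKL turns them into osteoclasts, the cells that resorb bone. There was 1 library for each condition, so that no difference below has a replicate check, and each value describes these 2 libraries. The study gives neither the age of the mice nor whether cells of several mice were pooled for RNA-seq.

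Chemokines are small secreted proteins that attract leukocytes through receptors coupled to G proteins. CC ligands carry a pair of adjacent cysteines near their amino end, and CXC ligands have another residue between the cysteines. Macrophages are a major source of the CC ligands that recruit monocytes and T cells, among them Ccl2 and Ccl5. Ccl9, also known as MIP-1 gamma, is a mouse chemokine that osteoclasts produce in response to RANKL, and its receptor Ccr1 is found on osteoclasts and their precursors. Cxcl2 attracts neutrophils.

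To show what separates the 2 families, the coding stretch around the first 2 cysteines is given for 9 of the genes, 5′ to 3′ on its own strand, with the cysteine codons in capitals and 5 codons on each side. The sequences are those of GENCODE vM21 transcripts on the mm10 (GRCm38) build.
Ccl2 (chr11:82036491-82036526, plus strand): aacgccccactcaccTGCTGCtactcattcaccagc
Ccl7 (chr11:82046523-82046558, plus strand): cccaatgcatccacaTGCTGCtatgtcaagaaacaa
Ccl12 (chr11:82102619-82102654, plus strand): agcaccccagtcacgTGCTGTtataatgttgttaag
Ccl8 (chr11:82116041-82116076, plus strand): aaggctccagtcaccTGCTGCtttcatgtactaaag
Ccl5 (chr11:83529227-83529262, minus strand): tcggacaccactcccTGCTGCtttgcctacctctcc
Ccl4 (chr11:83663467-83663502, plus strand): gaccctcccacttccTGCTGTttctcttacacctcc
Ccl6 (chr11:83589371-83589406, minus strand): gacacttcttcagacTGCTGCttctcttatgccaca
Ccl9 (chr11:83575911-83575946, minus strand): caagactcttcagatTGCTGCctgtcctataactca
Cxcl2 (chr5:90904127-90904165, plus strand): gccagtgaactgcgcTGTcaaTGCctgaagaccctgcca
Each stretch lies within 1 exon. In the 8 CC ligands shown the capitals stand side by side, and in Cxcl2 another codon separates them. Across the 45 pairs of genes, the coding sequences were 39.3 to 68.4% identical, with gaps counted as differences. The lowest values were those of pairs with Ccl2. Its coding sequence had 447 bases, against 276 to 369 in the other genes shown, so that gaps lower these values. Ccl3 and Ccl4 were the most alike pair, followed by Ccl7 and Ccl8 at 65.0%, Ccl8 and Ccl12 at 64.8% and Ccl6 and Ccl9 at 64.6%. The longest run of bases shared by the transcripts of any pair was 25, in Ccl6 and Ccl9, which is short beside the reads of 150 bases.

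In the culture with M-CSF and RANKL, the RNA of 8 of these ligands was 7.38-fold to 60.1-fold lower than in the culture with M-CSF, whereas that of Ccl9 was 1.73-fold higher. TPM, the abundance per transcript length scaled to a fixed total for each library, was used for comparisons unless another unit is named. The fold values of single genes and sums are plain ratios of TPM. Log2 ratios, and counts of genes past a fold, are on the scale log2(TPM + 1), as the value in MR minus that in M. The summed TPM of the 10 genes fell from 5385 in M to 1570 in MR, and that of the 9 genes other than Ccl9 fell from 4622 to 249, which is 18.6-fold. Ccl9 held 14.2% of the sum in M and 84.2% in MR. By the log2 ratio, 9 of the 10 genes were lower by over 2-fold, 8 of them by over 4-fold, and 0 were higher by over 2-fold. The 10 were chosen with earlier results of these data known, so the background is given for description only. It was the 13464 genes that had an unshared locus and reached 1 TPM in M or MR. Of these, 13.3% were lower and 21.2% higher by over 2-fold, 3.87% were lower by over 4-fold, and the median log2 ratio was 0.21, against -3.66 over the 10 ligands. In bulk RNA such as this, fewer cells of a type and less RNA in each cell cannot be told apart.

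**Figure D1:**
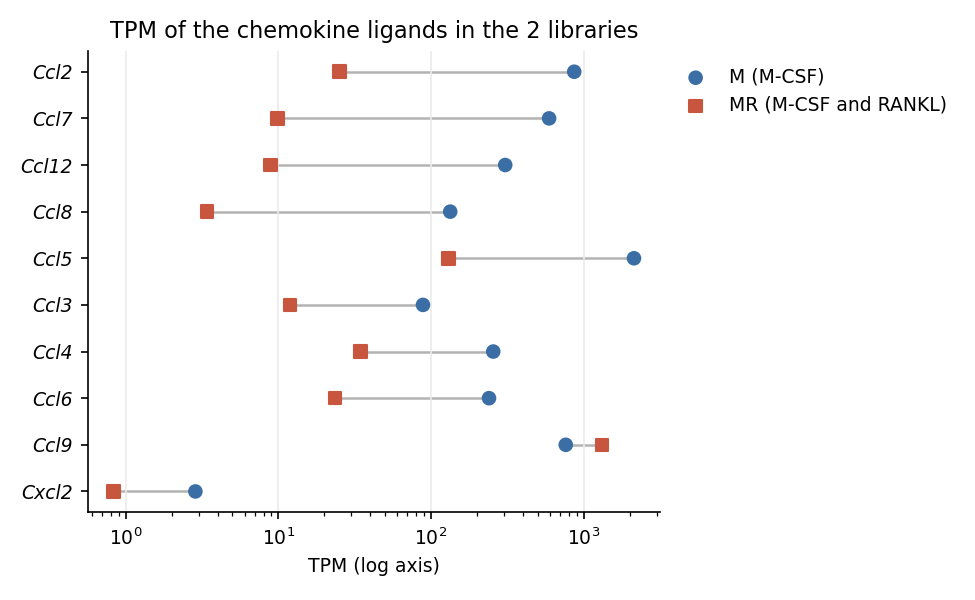
TPM of the 10 ligands on a log axis, with the library of the M-CSF culture (M) as circles and that of the M-CSF and RANKL culture (MR) as squares. The square lies to the left of the circle for each gene except Ccl9, which was at 763 TPM in M and 1321 in MR.

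Ccl2, Ccl7, Ccl12 and Ccl8, known as monocyte chemoattractant proteins, had the lowest ratios of the 10. Ccl2, the main ligand of Ccr2 and an attractant of monocytes, was at 867 TPM in M and 25.1 in MR. This was 34.5-fold lower, with a 95% interval from 27.9 to 42.6. Ccl7, which also draws monocytes and eosinophils, was at 593 TPM in M and 9.88 in MR. It was 60.1-fold lower (95% interval 43.1 to 83.8), and only 16 of the 13464 genes had a lower log2 ratio than its -5.77. The intervals come from approximate read pairs, 3917 and 87 for Ccl2 and 2163 and 35 for Ccl7 in M and MR, and cover counting error only, not the difference between cultures.

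Ccl12, a mouse ligand of Ccr2, was at 306 TPM in M and 8.90 in MR, 34.4-fold lower (22.2 to 53.4). Ccl8 was at 134 TPM in M and 3.40 in MR, 39.2-fold lower with a wide interval from 18.9 to 81.5, as only about 7 read pairs stood behind the value in MR. The intervals of these 4 genes overlap, except that the interval of Ccl7 begins above the end of that of Ccl2. The 4 together fell from 1900 TPM to 47.3, which is 40.2-fold. They kept their order in both libraries, with Ccl2 highest and Ccl8 lowest. The TPM of Ccl2 was 2.83 times that of Ccl12 in M and 2.82 times in MR, a pair chosen after its values were seen.

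Ccl5 (RANTES), a ligand of Ccr1 and Ccr3 that attracts T cells and monocytes, was the most abundant of the 10 in M. Its TPM was 2135 in M and 130.5 in MR, 16.4-fold lower (14.6 to 18.4). Ranked by TPM among the 13464 genes with an unshared locus and at least 1 TPM, it stood at 37 in M and at 1179 in MR. In MR it was second to Ccl9 among the 10.

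Ccl3 and Ccl4, the macrophage inflammatory proteins MIP-1 alpha and MIP-1 beta, attract monocytes and lymphocytes. Ccl3 was at 88.6 TPM in M and 11.9 in MR, 7.42-fold lower (5.36 to 10.3). Ccl4 was at 255 TPM in M and 34.6 in MR, 7.38-fold lower (5.97 to 9.12). Their intervals largely coincide, and Ccl3 was at 0.347 times the TPM of Ccl4 in M and at 0.345 times in MR.

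The size of the fall of Ccl4 depends on the column read. Its locus in M began 3179 bases upstream of the annotated start, against 14 bases in MR, and the coverage listed for M was 90.3 where its FPKM corresponds to 429. With coverage per aligned Gb in place of TPM, the log2 ratio was -0.66 rather than -2.85. Ccl3 has a similar but balanced feature. Its loci began 743 bases upstream in M and 733 in MR, and an assembled locus without a gene on the opposite strand lay over 194 of its exon bases at 35.0 TPM in M, and over 266 at 4.47 TPM in MR. The sources used here do not say whether the assembly used strand, so that reads of Ccl3 and of this locus cannot be told apart where they overlap.

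Ccl6 and Ccl9 are neighbours in the genome and belong to the same mouse subfamily of ligands with an extended amino end. Ccl6 was at 240 TPM in M and 23.4 in MR, 10.2-fold lower (8.65 to 12.1). Ccl9 was at 763 TPM in M and 1321 in MR, 1.73-fold higher (1.67 to 1.79). Its rank by TPM among the same 13464 genes moved from 145 to 106. Ccl9 was thus the only one of the 10 with more RNA in MR, and the TPM ratio of Ccl9 to Ccl6 went from 3.18 in M to 56.4 in MR.

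The log2 ratio of Ccl9, 0.79, was below the 2-fold threshold. It was 0.61 with median-of-ratios scaling, the lowest value under any setting tried, and kept its sign under all of those that gave it a value. The loci of Ccl9 ended 1747 bases before the annotated 3′ end in both libraries and held 40.8 and 40.7% of its exon bases, so that both values rest on the same part of the gene.

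Cxcl2 was near the limit of detection, at 2.86 TPM in M and 0.832 in MR. This is 3.44-fold lower, with an estimate of 17 read pairs for M and 1 for MR when only the bases of the shortest coding transcript in the locus are counted, and the interval from 0.583 to 20.3 includes no change. With all annotated exon bases in the locus, about 33 and 5 read pairs were estimated, and the interval ran from 1.38 to 8.53. Its locus in MR held 59.2% of the exon bases, against 98.7% in M. With FPKM or coverage in place of TPM, its log2 ratio of -1.07 became -0.76, above the threshold of -1.

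**Figure D2:**
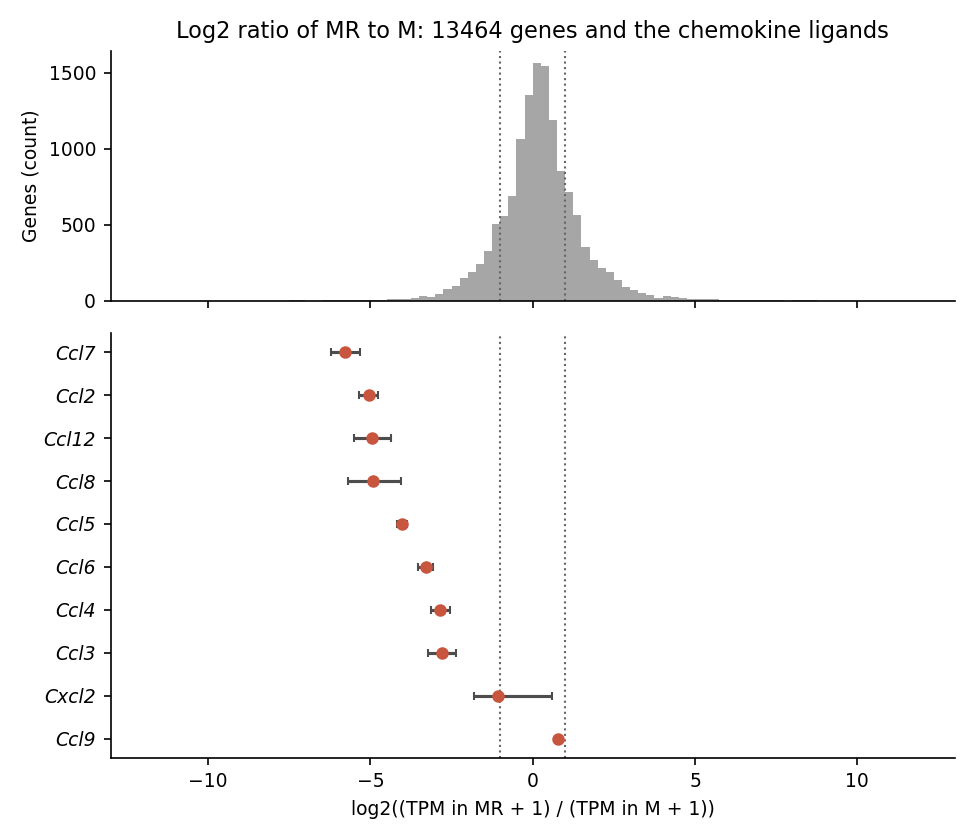
Histogram of the log2 ratio of MR to M over 13464 genes (top, count of genes on the vertical axis) and the log2 ratios of the 10 ligands with 95% counting intervals (bottom), on a common horizontal axis. Dotted lines mark 2-fold, and 8 of the ligands lie to the left of the bulk of the genes, between -5.77 for Ccl7 and -2.79 for Ccl3.

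The 9 CC ligands lie in 2 stretches of chromosome 11 in mm10. Ccl2 (82035571 to 82037453), Ccl7 (82045712 to 82047525), Ccl12 (82101845 to 82103400) and Ccl8 (82115185 to 82116799) are on the plus strand within 81.2 kb. The only other chemokine gene between them, Ccl11, had no locus in either library. The second stretch begins 1409 kb further on and spans 138.9 kb, with Ccl5 (83525778 to 83530518), Ccl9 (83572919 to 83578636), Ccl6 (83587882 to 83593087) and Ccl3 (83647844 to 83649355) on the minus strand and Ccl4 (83662584 to 83664683) on the plus strand. Within it, Ccl9 was higher in MR while the nearest chemokine genes on both sides of it, Ccl5 and Ccl6, were lower.

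The coding genes around the second stretch that reached 10 TPM, looked up for their position, differed in the size of their ratios. Taf15, an RNA-binding protein before Ccl5, was at 73.8 TPM in M and 62.1 in MR, with a log2 ratio of -0.25. Wfdc17, a small secreted protein of macrophages that follows Ccl4, was at 341 TPM in M and 26.2 in MR, with a log2 ratio of -3.65. Cxcl2 is on chromosome 5 (90903871 to 90905938, plus strand), in a stretch of CXC genes. Pf4 in that stretch, a platelet factor that macrophage cultures also express, was at 505 TPM in M and 38.4 in MR, whereas its neighbour Ppbp was at 22.4 and 27.3.

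**Figure D3:**
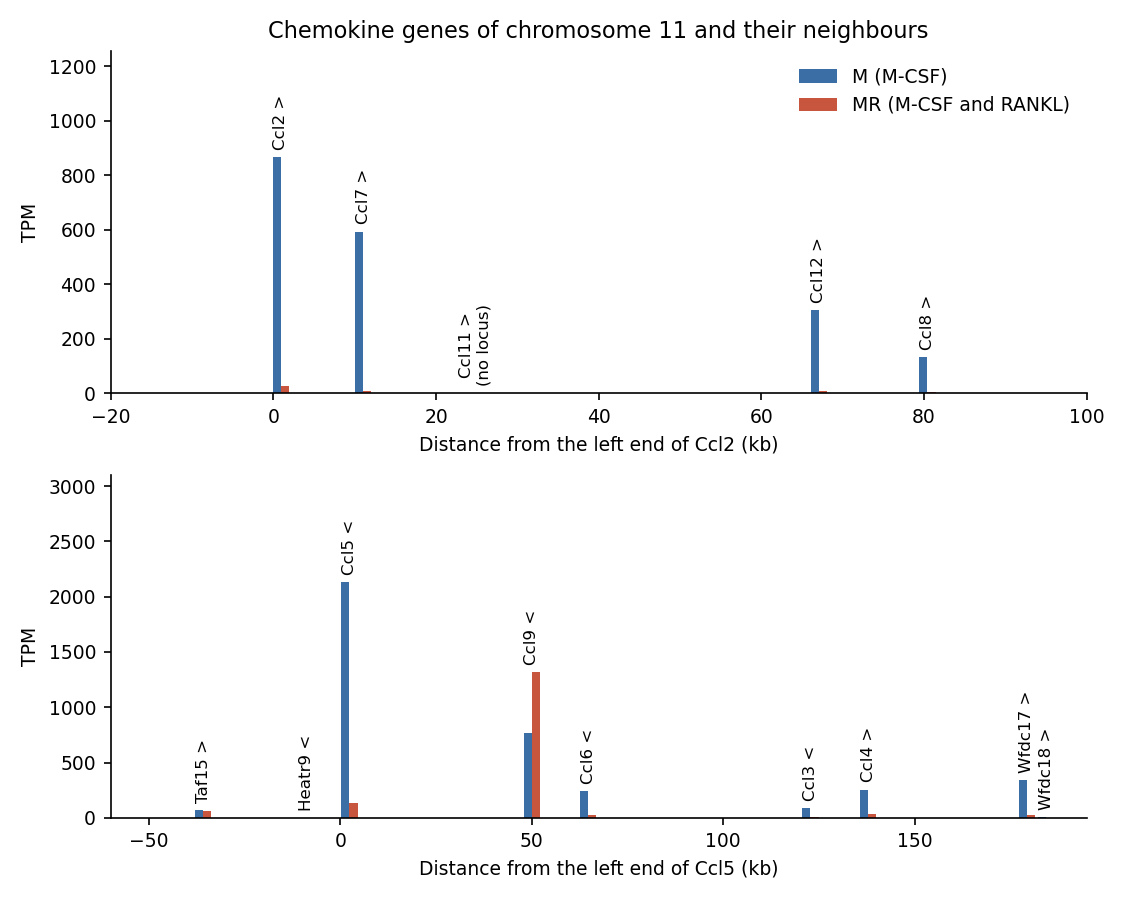
TPM in M and MR of the coding genes in the 2 chemokine stretches of chromosome 11 and beside them, by distance in kb from the left end of Ccl2 (top) and of Ccl5 (bottom), with arrowheads for the strand. Ccl9 is the only chemokine gene whose MR bar, at 1321 TPM, exceeds its M bar, at 763.

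Promoters, from 250 bases before to 50 bases after the start, were found in the RefSeq table for 6 of the 10 genes, Ccl3, Ccl6, Ccl8, Ccl9, Ccl12 and Cxcl2, on the GRCm38.p6 build. Ccl9 and Ccl6 are shown as neighbours with opposite directions, and Ccl12 and Ccl8 as neighbours that fell together. Capitals mark matches to the NF-kappaB consensus, which was searched on both strands.
Ccl9 (chr11:83578587-83578886, minus strand): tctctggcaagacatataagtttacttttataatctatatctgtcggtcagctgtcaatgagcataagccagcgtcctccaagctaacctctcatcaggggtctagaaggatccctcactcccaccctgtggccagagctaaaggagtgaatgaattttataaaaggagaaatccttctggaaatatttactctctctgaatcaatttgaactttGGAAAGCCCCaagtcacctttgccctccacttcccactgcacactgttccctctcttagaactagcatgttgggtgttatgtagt
Ccl6 (chr11:83593038-83593337, minus strand): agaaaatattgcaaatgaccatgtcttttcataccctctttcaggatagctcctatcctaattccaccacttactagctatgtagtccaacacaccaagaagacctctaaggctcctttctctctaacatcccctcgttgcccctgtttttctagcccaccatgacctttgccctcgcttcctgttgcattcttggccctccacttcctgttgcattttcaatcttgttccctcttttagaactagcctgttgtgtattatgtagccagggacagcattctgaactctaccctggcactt
Ccl12 (chr11:82101595-82101894, plus strand): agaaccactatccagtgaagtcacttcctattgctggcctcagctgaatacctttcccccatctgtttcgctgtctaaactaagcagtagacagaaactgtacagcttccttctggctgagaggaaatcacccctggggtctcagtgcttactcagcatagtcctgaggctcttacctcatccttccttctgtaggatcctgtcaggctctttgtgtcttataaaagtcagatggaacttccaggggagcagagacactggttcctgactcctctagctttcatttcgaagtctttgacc
Ccl8 (chr11:82114935-82115234, plus strand): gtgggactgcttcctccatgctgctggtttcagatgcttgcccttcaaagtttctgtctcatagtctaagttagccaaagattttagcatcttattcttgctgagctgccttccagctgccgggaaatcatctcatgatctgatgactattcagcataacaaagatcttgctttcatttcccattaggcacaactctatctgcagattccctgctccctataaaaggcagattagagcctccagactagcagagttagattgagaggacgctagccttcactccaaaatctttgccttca
A match to the NF-kappaB consensus was found in Ccl9, beginning at -35 from the annotated start, and in Cxcl2, where overlapping matches on both strands begin at -97 and -96. The assembled loci of Ccl9 began 57 (M) and 59 (MR) bases downstream of its annotated start, so the match may lie further from the start used here. The consensus was found in none of the other 4, and 8.46% of all 32851 promoters held a match. These matches are a description of the letters and not evidence of binding.

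The AP-1 motif TGANTCA was present in Ccl9 alone of the 6, against 7.81% of all promoters. The interferon regulatory factor motif GAAANNGAA was present in Ccl3 alone, against 8.56%, and the C/EBP motif TTGCNNAA in none of the 6, against 10.8%. TATAAA on either strand was present in Ccl8, Ccl9 and Ccl12, against 13.6%, and began at -32 in Ccl8 and at -31 in Ccl12. The promoters of Ccl8 and Ccl12 could be aligned over 296 positions with 59.5% identity. Those of Ccl6 and Ccl9 shared 74 aligned positions with 78.4% identity. Counted from the annotated starts, these ran from -59 to 14 in Ccl6 and from -18 to 48 in Ccl9. The assembled loci began 57 (M) and 59 (MR) bases inside the annotated start in Ccl9, and 18 and 16 bases inside it in Ccl6. The place further downstream in Ccl9 thus holds for the annotated starts and need not hold for the starts used in these cultures.

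Many chemokine transcripts carry AU-rich elements after the stop codon that shorten the life of the RNA. The pentamer ATTTA was counted in the annotated part after the stop codon. It was present in 8 of the 10 genes, all but Ccl5 and Ccl8, against 59.1% of 18856 coding genes. Those 18856 leave out genes with a very short such part, and are otherwise counted over stretches of any length. The loci of Ccl9 ended 1747 bases before its annotated 3′ end in both libraries, so its count covers bases outside the assembled RNA. Ccl12 had 29.9 per kb, Cxcl2 15.0, Ccl3 12.2 and Ccl4 6.62, and only 8.10% of coding genes had 5 or more per kb. The nonamer TTATTTATT was present in Cxcl2 alone, 4 times, and in 6.21% of coding genes. Whether this density is related to the log2 ratios was not tested, and the life of the RNA was not measured.

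The receptors of these ligands moved in different directions. Of 8 receptors, 5 had a locus, and 1 was higher and 2 lower by over 2-fold. Of all genes, 21.2% were higher and 13.3% lower. Ccr1, a receptor of Ccl3, Ccl5, Ccl6 and Ccl9, was at 3.65 TPM in M and 144 in MR. Its log2 ratio was 4.96. It was the only one of the 5 past 2-fold in that direction. Ccr2, the receptor of Ccl2, Ccl7 and Ccl12, was at 60.4 TPM in M and 16.8 in MR. Ccrl2, an atypical receptor that does not drive migration, was at 32.6 and 4.99. Ccr3 and Cxcr2 were not changed by over 2-fold, with log2 ratios of 0.72 and -0.42. Ccr8, Ackr1 and Ackr2 had no locus in either library.

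Of 27 other chemokine ligands, 13 had a locus, and 7 of these had a log2 ratio below 0 and 6 above 0. By over 2-fold, 6 were lower and 1 higher, where 13.3% of all genes were lower and 21.2% higher. The median log2 ratio was -0.93. By coverage per aligned Gb, 4 were lower and 0 higher by over 2-fold. The falls past 2-fold among those with a TPM of at least 10 were in Pf4 (-3.68), in Cxcl14 (-2.81), in Cxcl16 (-2.11), which binds Cxcr6 and scavenges lipoproteins, and in Cxcl9 (-1.29), an interferon-induced ligand. Cxcl10, another interferon-induced ligand, named after its values were seen, stayed abundant at 358 TPM in M and 187 in MR. In MR it was second to Ccl9 among the ligands of both lists.

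**Figure D4:**
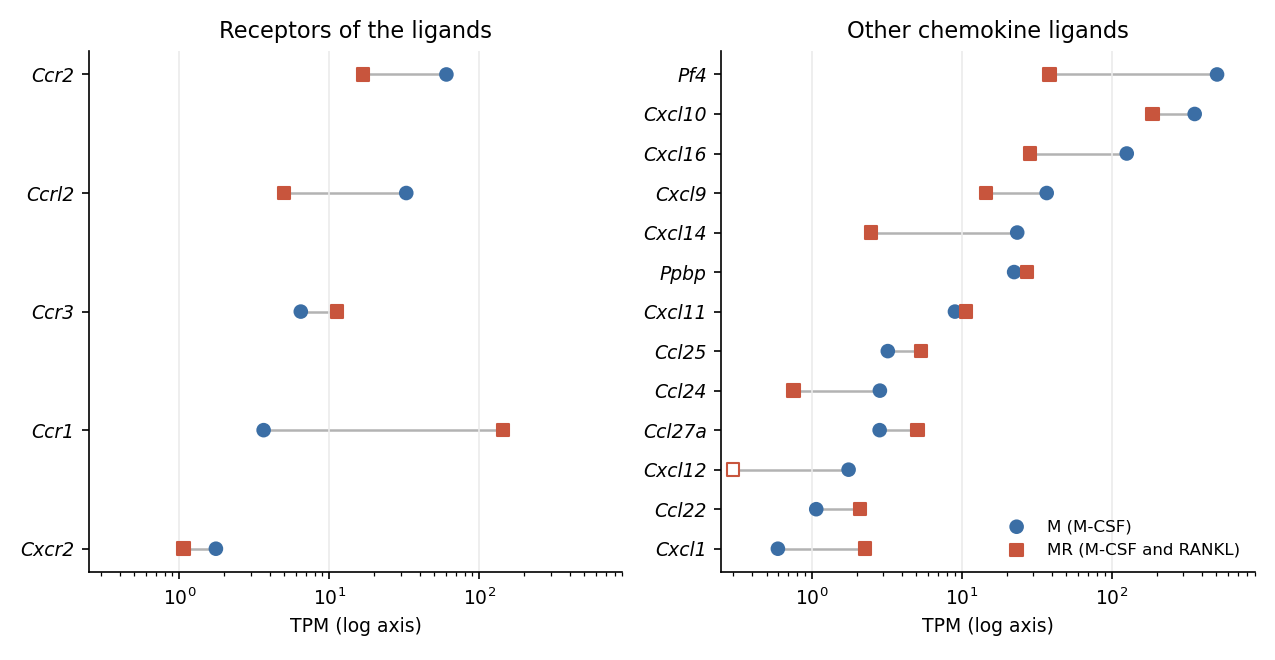
TPM on log axes in M (circles) and MR (squares) of the receptors (left) and of the other chemokine ligands (right) with a locus, ordered by TPM in M, with an open symbol at 0.3 for a gene without a locus in that library. Ccr1 moves from 3.65 to 144 TPM and Ccr2 from 60.4 to 16.8.

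Of 26 genes that act below chemokine receptors, 25 had a value. Of these 25, 8 were lower and 2 higher by over 2-fold, where 13.3% of all genes were lower and 21.2% higher, and the median log2 ratio was -0.50. By coverage per aligned Gb, 9 were lower and 2 higher. Vav1 (-2.03) and Cdc42 (-2.41) were then lower by over 2-fold, and Pik3cg (-0.999) was just within 2-fold. The regulators of G protein signalling Rgs1 (-3.38), Rgs18 (-1.94) and Rgs2 (-1.31), the G protein subunits Gng2 (-2.34) and Gng12 (-1.26), beta-arrestin 2 (Arrb2, -1.66), the Rac activator Dock2 (-1.63) and the kinase subunit Pik3cg (-1.06) were the lower ones by log2 ratio. Rac2, a GTPase of blood cells that organizes actin, was at 170 TPM in M and 601 in MR. The phospholipase Plcb2 was the other higher gene, with a log2 ratio of 1.48.

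Factors that are known to act on chemokine genes had a median log2 ratio of 0.16, with 8 higher and 6 lower by over 2-fold of 23 with a value, where 21.2% of all genes were higher and 13.3% lower. By coverage per aligned Gb, 6 were higher and 5 lower, as Fos (0.66), Relb (0.98) and Irf5 (-0.90) were then within 2-fold. The higher ones included the AP-1 factor Fosl2, at 6.54 TPM in M and 391 in MR, Fos and Junb with log2 ratios of 1.92 and 1.47, the NF-kappaB subunits Nfkb2 (1.87) and Relb (1.07), and the NF-kappaB inhibitors Nfkbia (2.22), Tnfaip3 (1.49) and Nfkbie (1.13). The lower ones were the stress-induced factor Atf3, at 408 TPM in M and 44.8 in MR, the interferon regulatory factors Irf8 (-2.57), Irf7 (-1.50) and Irf5 (-1.12), the NF-kappaB cofactor Nfkbiz (-2.17) and the macrophage factor Cebpb (-1.43). No single direction was thus shared by the factors.

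Markers of cell types moved in different directions, and the part of cell types in the result was not tested. The counts of markers stand beside 13.3% of all genes lower and 21.2% higher by over 2-fold. All 9 osteoclast markers were higher in MR by over 2-fold, and their TPM summed to 126 in M and to 24993 in MR. Dcstamp, Ocstamp, Oscar and Calcr had no locus in M. Of 9 monocyte and macrophage markers, 5 were lower and 0 higher, with a sum of 21915 TPM in M and 8076 in MR. Lyz2, at 16035 and 4535 TPM, made up most of this sum, and its locus is shared with another gene. Without Lyz2 and Itgam, whose locus is also shared, the other 7 markers summed to 5709 and 3406 TPM, with 4 lower. The Fc receptor Fcgr1 went from 1158 TPM to 60.5 and the macrophage antigen Adgre1 (F4/80) from 681 to 148, but Csf1r, the receptor of M-CSF, was at 697 and 872 and Cd68 at 2607 and 2171. No marker of this list was at 0 in either library. The log2 ratios of the list ran from -4.24 for Fcgr1 to 0.32 for Csf1r, with a median of -1.82. Those of the 10 ligands ran from -5.77 to 0.79, with a median of -3.66.

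Cells of other types that make these chemokines were searched by their markers. Of 8 markers of T and NK cells, Cd3e, Cd3d, Trbc1, Gzma, Klrb1c and Cd8a had no locus in either library, and the sum was 14.8 TPM in M and 9.82 in MR. Nkg7 was at 1.77 TPM in M and had no locus in MR, and Cd4 made up the rest. Ccl5, which T and NK cells also make, was at 2135 and 130.5 TPM, and the part of such cells in its level was not tested. The 8 neutrophil markers all had a locus in both libraries, with 0 past 2-fold and a sum of 1365 TPM in M and 953 in MR. The 7 markers of mast cells, basophils and eosinophils summed to 24.3 and 18.6 TPM, the 5 of B cells to 14.0 and 8.34, and the 6 of dendritic cells to 11.1 and 12.0. The 8 stromal markers summed to 20.5 TPM in M and 41.2 in MR, with 4 higher by over 2-fold. The 10 housekeeping genes had a median log2 ratio of 0.38. Under the other settings that median ran from 0.20 with median-of-ratios scaling to 0.79 with loci over at least 50% of the exon bases. Of these 10 genes, 3 were higher and 0 lower by over 2-fold. Of all genes, 21.2% were higher and 13.3% lower past the same fold.

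The tables listed 19422 assembled loci in M and 19922 in MR, with 3.63 and 2.98 Gb of aligned bases as read from the ratio of coverage to FPKM. Loci given to genes held 95.4% of the TPM in M and 96.9% in MR. Each of the 10 ligands had 1 unshared locus per library. The annotated gene Gm17268 overlaps Ccl2 on the opposite strand but had no locus.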

How the data were processed

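Total RNA of 2 cultures was sequenced as paired reads of 150 bases. The authors trimmed reads with Trim Galore, aligned them to mm10 with HISAT2 and ran StringTie with the GENCODE vM27 annotation. The deposited tables hold coverage (signal, a depth per base not scaled for library size), FPKM and TPM. The deposited TPM column was handled as a score, since the assembled loci alone sum to 1000000 and entries with gene names come in addition. The vM27 positions are on GRCm39, so that these entries were not used. Each assembled locus was given to the GENCODE vM21 (mm10) gene that it overlapped most, by at least 50 exon bases on the same strand, and TPM was summed per gene. A locus that also held 50% or more of a second coding gene's exon bases was called shared, and genome-wide shares leave such genes out.

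Log2 ratios used a pseudocount of 1, without a test, as each condition has 1 library. Read pairs were approximated as FPKM × aligned Gb × bases of the shortest coding transcript in the locus / 300, and 95% intervals are Wilson intervals on them. Identity of coding sequences replaced the planned identity of proteins. The genes and lists were chosen with earlier results of these data known. All 10 ligands were named, and other genes of the lists at a TPM of at least 10 and past 2-fold, and cell type markers by level. Alternatives were another pseudocount, unit, scaling, filter, threshold, strand rule and minimum of exon bases. The assignment was tested on simulated data. The scripts used Python 3.11.15, numpy 2.4.6, pandas 2.3.3, scipy 1.17.1, Biopython 1.88 and matplotlib 3.10.9. 1 receptor and the sequence of 1 ligand are not reported here. Versions of the authors' tools are not given in the sources used here.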

Additional observations from a re-analysis of the deposited data

Results flagged for a closer look

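An assembled locus that no gene of the annotation accounts for was listed on the plus strand over the minus-strand gene Ccl3, at 35.0 TPM in M and 4.47 in MR. In M it extended from 83648641 to 83650337 on chromosome 11 (mm10), 1697 bases, of which 194 lay over exons of Ccl3. It was flagged as signal outside the genes compared, and it was lower in MR, as was Ccl3.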

How the results depend on the processing

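No paired analysis was possible because each condition has 1 library, and for the same reason no library could be left out. Of 69 log2 ratios of the ligands under alternative settings, 64 moved by less than their counting interval, 5 moved by more and 0 changed sign. Ccl9 was at 0.73 with FPKM in place of TPM, at 0.61 with median-of-ratios scaling and at 0.69 with TPM recomputed after removal of mitochondrial genes and of the top 20 genes by TPM. Ccl5 was at -4.20 with median-of-ratios scaling. Ccl4 was at -0.66 with coverage per aligned Gb, where its locus in M began far upstream of the gene. Median-of-ratios scaling lowered the median over all genes from 0.21 to 0.04. Between 7 and 9 ligands were lower by over 2-fold under the settings run, and 0 were higher, where 10.1 to 16.7% of all genes were lower. With a threshold of 4-fold, 8 were lower, where 3.87% of all genes were. Ccl9 had no value where a locus had to hold at least 50% of the exon bases. Depth limits Cxcl2 most, followed by Ccl8.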
